A study of Mus musculus with 9 samples.

Results

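The genes described here are 10 genes of the NRF2 antioxidant and glutathione pathway, chosen by gene symbol: Nfe2l2, Nqo1, Hmox1, Gclm, Gclc, Srxn1, Txnrd1, Slc7a11, Prdx1 and Gsr. All 10 were found among the 45535 rows of the table that carry a gene symbol, each in 1 row, and all 10 were among the 18202 genes that were tested, whose normalized counts averaged at least 10. The RNA came from lung dendritic cells carrying the integrin CD103, taken from C57/BL6j mice after 7 days of bleomycin, a drug that injures the lung and is used to model fibrosis. Lungs were digested with collagenase and cells were isolated with magnetic beads. In 5 samples RNA was extracted straight away (before culture). The 4 other samples (after culture) first spent 18 h in RPMI containing fetal bovine serum and penicillin-streptomycin. Both groups had bleomycin, and lungs without bleomycin were not analysed here. The labels give neither the age of the mice nor whether a sample pools several of them, so p-values measure only the spread between these samples.

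NRF2, the product of Nfe2l2, is a transcription factor of the cap'n'collar family. The adaptor KEAP1 binds it in the cytosol and passes it to a CUL3 ubiquitin ligase, so that it is degraded, and electrophiles or oxidants that modify cysteines of KEAP1 let it accumulate and enter the nucleus. There it pairs with small MAF proteins at antioxidant response elements, from which BACH1 can displace it. Its known target genes supply cystine and glutathione, the thioredoxin system, NADPH, and enzymes that detoxify quinones and heme. Because NRF2 is controlled mainly through protein stability, the level of its own transcript is a poor guide to its activity.

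Promoter sequences are shown as a description, and their part in the changes described below was not tested. RefSeq promoter windows on GRCm38.p6, which run from 250 bases before to 50 bases after a transcription start, were matched for 7 of the 10 genes (9 windows, 3 of them for Txnrd1). Windows for Hmox1, Gclc and Gsr were not used here. Each was searched on both strands for the core of the antioxidant response element, TGACNNNGC, and for TGAGTCA, the site of AP-1 factors, with which the element can overlap. The core was found in windows of 5 genes (Nfe2l2, Srxn1, Gclm, Prdx1 and Txnrd1), against 12.4% of all 32851 windows and 14.0% of the 27025 genes that have one. TGAGTCA was found for Srxn1 and Prdx1, against 5.20% of all windows and 5.95% of the genes. A match is a description of letters and not a measured binding site. The genes were chosen as genes of the NRF2 pathway, so their share with a match is not a test. In the stretches below, read 5′ to 3′ along the gene's strand, capitals mark these matches.

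Prdx1, 159 to 99 bases before the start, chr4:116685440-116685500, + strand, core on the opposite strand and TGAGTCA within it: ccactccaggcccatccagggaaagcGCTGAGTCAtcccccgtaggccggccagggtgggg

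Gclm, 160 to 100 bases before the start, chr3:122245397-122245457, + strand, core on the opposite strand: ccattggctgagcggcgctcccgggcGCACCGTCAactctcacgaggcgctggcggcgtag

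Txnrd1, 118 to 58 bases before the start of 1 of its 3 windows, chr10:82859088-82859148, + strand, core on the opposite strand: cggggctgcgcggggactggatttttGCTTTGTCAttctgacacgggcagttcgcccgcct

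Srxn1, 110 to 31 bases before the start, chr2:152105414-152105493, + strand, with 2 copies of TGAGTCA: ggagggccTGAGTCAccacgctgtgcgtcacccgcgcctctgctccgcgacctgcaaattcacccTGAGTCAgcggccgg

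Nfe2l2, 250 to 206 bases before the start, chr2:75704869-75704913, − strand, core on the gene's strand: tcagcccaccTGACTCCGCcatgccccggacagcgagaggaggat

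The genes of these stretches include the member that fell (Nfe2l2) as well as members that rose. In Srxn1 the core itself lies 29 to 37 bases after the start, on the opposite strand. Prdx1 has a further TGAGTCA on the opposite strand, from 237 bases before the start, outside the stretch shown. No match was found in the windows of Nqo1 and Slc7a11, which says only that these letters are not in those windows.

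Depth in rows with a gene symbol ran from 14.7 to 35.3 M reads per sample, and a single read equalled 0.758 to 1.79 normalized counts. A normalized count is a read count divided by 1 factor per sample. Replicates of a group differed by more than counting noise in all 16 pairs. Of 8 markers of the type 1 conventional dendritic cells (cDC1) that CD103 marks in lung, all were read in both groups, and 7 were lower and 1 higher after culture. Xcr1, a chemokine receptor of these cells, had a mean normalized count of 5836 before and 114 after culture. Transcripts of other lung cells were read too, and the labels' extraction text speaks of total lung RNA, although the cell type label gives CD103+ DCs. In such bulk samples, fewer cells of a type and less RNA per cell cannot be told apart.

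After culture, 9 of the 10 genes rose and 1 fell, each at an adjusted p under 0.05 in limma. Over all 18202 tested genes, 34.2% rose and 34.6% fell by the same rule. The rises ranged from 2.06-fold for Gsr to 22.3-fold for Nqo1, and the gene that fell was Nfe2l2 itself. The median log2 fold change of the 10 genes was 2.68, beside 0.0065 over all tested genes. The 10 genes were chosen with earlier results of these data known, so values over all genes are background and not a test. For all 10 genes the samples of the groups did not overlap: every value after culture lay above every value before for 9 genes, as for 28.7% of tested genes, and below for 1, as for 28.6% of tested genes. Together the 10 genes took 0.141 ± 0.00873% of named reads before (SD, n = 5) and 0.581 ± 0.0576% after culture (SD, n = 4).

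**Figure D1:**
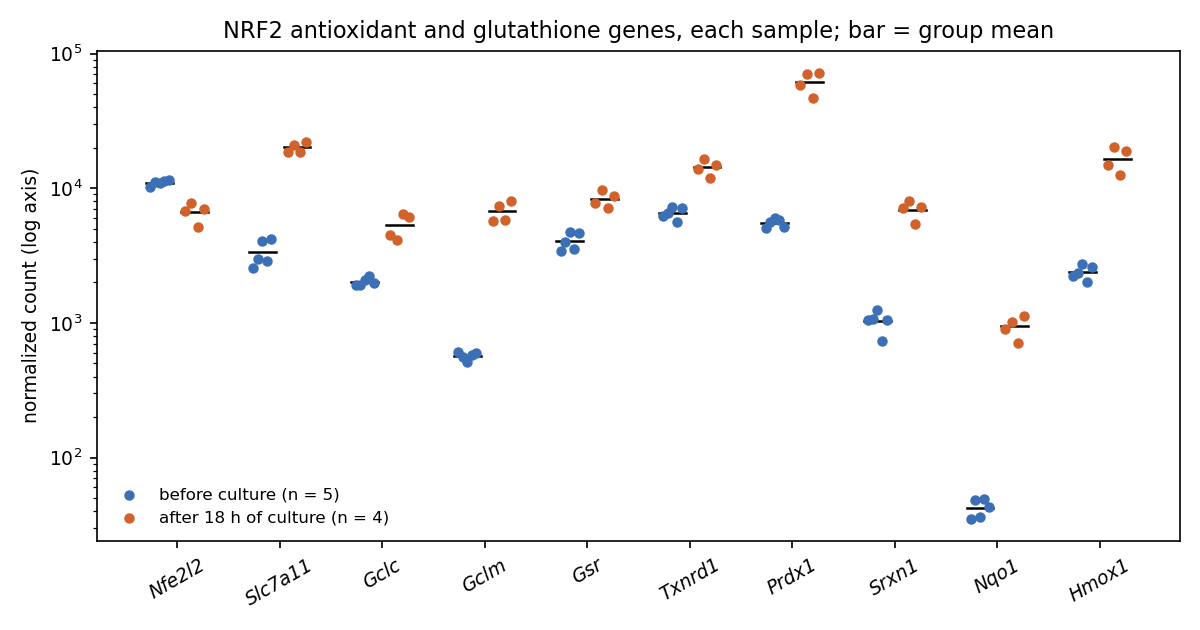
Normalized count (log axis) of each of the 10 genes in each sample, before culture (blue, n = 5) and after 18 h of culture (orange, n = 4), with a bar at each group mean. The orange points lie above the blue ones for 9 genes, most of all for Nqo1, and below them for Nfe2l2.

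Nfe2l2 (chromosome 2, 75675513 to 75704641, − strand, all gene positions on GRCm38), which encodes NRF2, went down. Its normalized counts were 10168, 11051, 10961, 11247 and 11458 in replicates 1 to 5 before culture, and 6720, 7729, 5143 and 7017 in replicates 1 to 4 after culture. The 5 samples before culture lay within 1.13-fold of each other, and the highest sample after culture was still 1.32-fold below the lowest before. The group means were 10977 ± 491 (SD, n = 5) and 6652 ± 1092 (SD, n = 4), which is 1.65-fold lower after culture. The log2 fold change was −0.74 (SE 0.103, limma adjusted p = 2.61e-05).

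Of the genes for cystine supply and glutathione synthesis, Slc7a11 and Gclm rose several-fold and Gclc less. Slc7a11 (chromosome 3, 49892526 to 50443614, − strand) is the light chain of the cystine/glutamate antiporter xCT, which brings in the cystine needed for glutathione. It was read at normalized counts of 2564, 2979, 4077, 2864 and 4189 before and 18713, 20943, 18614 and 22229 after culture. Its values spread 1.63-fold before and only 1.19-fold after culture. The means were 3335 ± 745 and 20125 ± 1767, a 6.04-fold rise (log2 fold change 2.62, SE 0.138, limma adjusted p = 1.84e-09).

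Gclm (chromosome 3, 122245557 to 122270732, + strand) and Gclc (chromosome 9, 77754535 to 77794485, + strand) encode the modifier and the catalytic subunit of glutamate-cysteine ligase, the rate-limiting enzyme of glutathione synthesis. Gclm had normalized counts of 613, 559, 512, 573 and 594 before and 5673, 7331, 5810 and 8104 after culture. Its means were 570 ± 38.7 and 6730 ± 1185, an 11.8-fold rise (log2 fold change 3.54, SE 0.107, limma adjusted p = 1.09e-11). Samples before culture were close together and the lowest sample after culture was 9.25-fold above the highest before. Of the annotated exonic length of Gclm, 4.71% overlaps Gm17494 on the opposite strand, and whether the counting used strand is not given in the sources used here. Gclc had normalized counts of 1911, 1908, 2096, 2221 and 1974 before and 4518, 4161, 6435 and 6153 after culture. Its means were 2022 ± 135 and 5317 ± 1143, a 2.63-fold rise (log2 fold change 1.37, SE 0.121, limma adjusted p = 3.17e-07). After culture, Gclc was low in replicates 1 and 2 and high in replicates 3 and 4, while its groups stayed 1.87-fold apart at their nearest samples.

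The modifier subunit therefore rose more than the catalytic one within the same samples. The log2 ratio of Gclm to Gclc normalized counts averaged −1.82 ± 0.163 before culture (SD, n = 5) and 0.35 ± 0.395 afterwards (SD, n = 4). This is a 4.51-fold rise of the ratio (two-sided exact permutation test, p = 0.0159, which is the lowest p this design can give, adjusted p = 0.0238 over 3 ratios). Slc7a11 also changed relative to its partner Slc3a2, the heavy chain that carries xCT and other amino acid transporters to the membrane. The log2 ratio of Slc7a11 to Slc3a2 went from −1.41 ± 0.293 to 1.38 ± 0.137, a 6.93-fold rise of the ratio (exact two-sided permutation test, p = 0.0159, adjusted p = 0.0238). Slc3a2 itself did not pass the threshold (8707 ± 626 before against 7725 ± 854 after culture, log2 fold change −0.18, limma adjusted p = 0.0938). It did pass, as lower, without replicate 4 before culture (adjusted p = 0.0284) or replicate 2 after culture (0.0481), with sample weights (0.0325) and with a replicate block by library number (0.0241). With GC content and gene length corrected for, its estimate turned to 0.19 (adjusted p = 0.0441). Ratios of counts are not corrected for length, so only their change between groups can be read. With 1 after-culture sample left out, both ratios kept at least 2.02 as their log2 rise at an adjusted p of 0.0536, the smallest attainable there with 2 of 3 ratios at the limit.

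**Figure D2:**
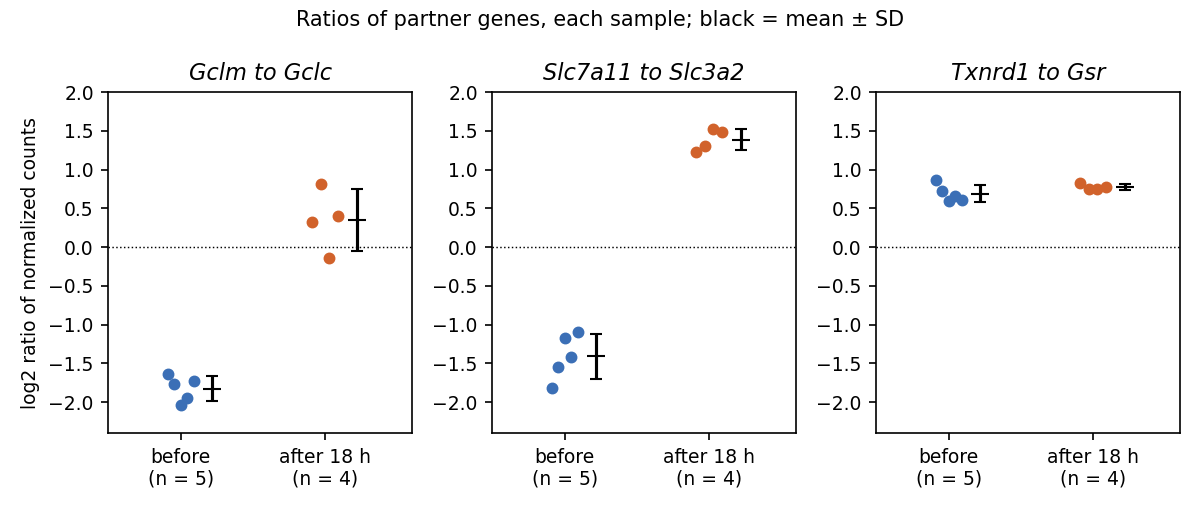
Log2 ratio of normalized counts of 3 gene pairs in each sample before culture (blue, n = 5) and after 18 h (orange, n = 4), with mean ± SD in black. The ratios of Gclm to Gclc and of Slc7a11 to Slc3a2 do not overlap between groups, whereas those of Txnrd1 to Gsr do.

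Both reductases among the 10 genes that return glutathione or thioredoxin to its reduced form rose. Gsr (chromosome 8, 33652523 to 33698163, + strand) encodes glutathione reductase, which uses NADPH to reduce glutathione disulfide. Its normalized counts were 3392, 3971, 4749, 3566 and 4654 before and 7834, 9748, 7158 and 8703 after culture. Its means were 4066 ± 618 and 8361 ± 1120, a 2.06-fold rise (log2 fold change 1.04, SE 0.117, limma adjusted p = 3.30e-06). The nearest samples of the groups were 1.51-fold apart, the smallest such gap among the 9 genes that rose. Txnrd1 (chromosome 10, 82833951 to 82897712, + strand) encodes the cytosolic thioredoxin reductase, a selenoprotein related to Gsr. The samples held normalized counts of 6182, 6539, 7197, 5623 and 7092 before and 13856, 16356, 12013 and 14885 after culture. Its means were 6527 ± 653 and 14277 ± 1825, a 2.19-fold rise (log2 fold change 1.13, SE 0.101, limma adjusted p = 3.56e-07). The log2 ratio of Txnrd1 to Gsr was 0.69 ± 0.109 before and 0.77 ± 0.0357 after culture, and its groups overlapped. That difference of 0.083 did not pass (exact two-sided permutation test, p = 0.206, adjusted p = 0.206 over 3 ratios), but without replicate 1 before culture it was 0.127 at an adjusted p of 0.0286.

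Prdx1 and Srxn1, which act in peroxide handling downstream of thioredoxin, also rose. Prdx1 (chromosome 4, 116685544 to 116700822, + strand) encodes peroxiredoxin 1, a thioredoxin-dependent peroxidase of the cytosol. Its normalized counts were 5058, 5630, 5967, 5807 and 5159 before and 57975, 70921, 47189 and 71721 after culture. Its means were 5524 ± 400 and 61951 ± 11685, an 11.2-fold rise (log2 fold change 3.47, SE 0.118, limma adjusted p = 3.13e-11). Even the lowest sample after culture was 7.91-fold above the highest before. Of the 50-base windows of its longest transcript, 10.9% match other genes as well, chiefly Gm21399, so part of its count could be shared with such copies. Srxn1 (chromosome 2, 152105516 to 152111376, + strand) encodes sulfiredoxin, which repairs peroxiredoxins whose active cysteine has been over-oxidized. Normalized counts for this gene were 1048, 1074, 1250, 736 and 1060 before and 7097, 8049, 5391 and 7224 after culture. Its means were 1034 ± 186 and 6940 ± 1116, a 6.72-fold rise (log2 fold change 2.75, SE 0.143, limma adjusted p = 1.63e-09). Replicate 4 was low before culture and replicate 3 low after culture.

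The detoxification enzymes that are the most used readouts of NRF2 rose as well. Nqo1 (chromosome 8, 107388225 to 107403206, − strand) encodes a quinone reductase that keeps quinones from redox cycling. Its normalized counts were 35.2, 48.3, 35.9, 49.4 and 43.0 before and 909, 1016, 714 and 1135 after culture. Its means were 42.3 ± 6.65 and 944 ± 179, a 22.3-fold rise (log2 fold change 4.44, SE 0.161, limma adjusted p = 5.62e-11), the 57th largest among the 18202 tested genes. Before culture it rested on as few as 24 reads in a sample, the fewest among the 10 genes. Even so, the groups were 14.5-fold apart at their nearest samples. Hmox1 (chromosome 8, 75093621 to 75100589, + strand) encodes heme oxygenase 1, which breaks heme into biliverdin, carbon monoxide and iron, and which BACH1 represses. In normalized counts, its samples stood at 2227, 2352, 2752, 2007 and 2585 before and 14835, 20379, 12476 and 18835 after culture. Its means were 2385 ± 293 and 16631 ± 3624, a 6.97-fold rise (log2 fold change 2.78, SE 0.136, limma adjusted p = 8.94e-10). The groups were 4.53-fold apart at their nearest samples.

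**Figure D3:**
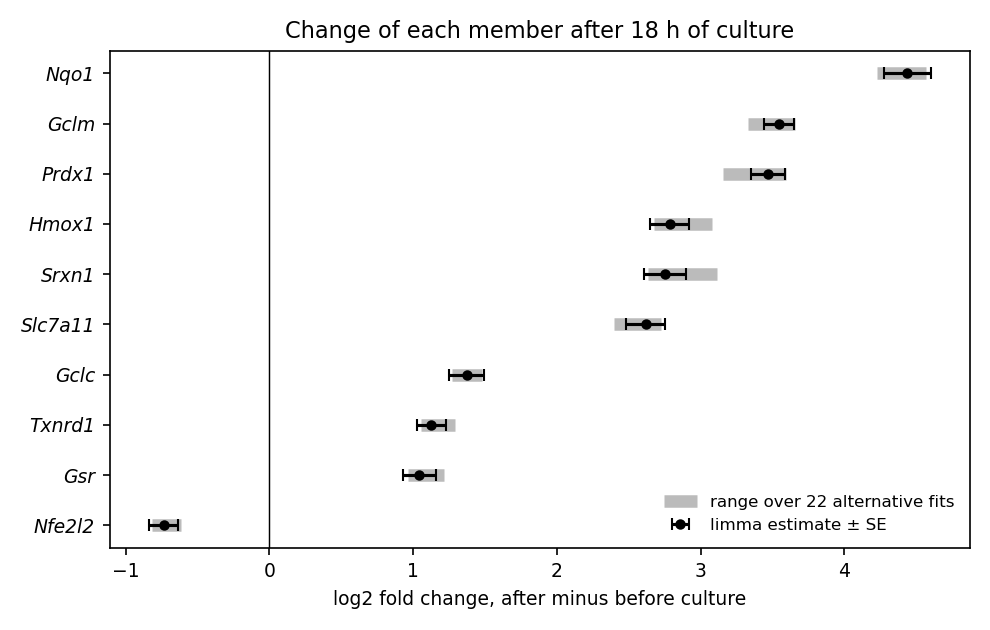
Log2 fold change (after minus before culture) of each gene from limma, with its SE, over a grey bar that spans the estimates of 22 alternative fits. All bars stay on 1 side of 0, from −0.74 for Nfe2l2 to 4.44 for Nqo1 in the estimates.

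The order of the 10 genes by level also changed. Levels of different genes were compared as normalized counts per kilobase of annotated exons, merged over all transcripts of a gene (GENCODE M21, on GRCm38). The transcripts in use and the annotation used for counting are not known, so the order and the shares below depend on these lengths. Before culture, Nfe2l2 had the highest level per kilobase (2892 ± 129), followed by Prdx1 (1815 ± 131), Gsr (1476 ± 224) and Hmox1 (1362 ± 167). Of these neighbours in the order, the samples of Prdx1 and Gsr overlapped, as did those of Gsr and Hmox1. Below them came Txnrd1 (921 ± 92.1), Gclc (537 ± 35.7), Srxn1 (366 ± 65.9), Slc7a11 (240 ± 53.5), Gclm (90.7 ± 6.15) and Nqo1 (27.3 ± 4.28), and only Srxn1 and Slc7a11 overlapped among these.

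After culture, Prdx1 led (20359 ± 3840 per kilobase), then Hmox1 (9498 ± 2070) and Gsr (3036 ± 407), with no overlap between these neighbours. Srxn1 (2461 ± 396), Txnrd1 (2015 ± 258), Nfe2l2 (1752 ± 288), Slc7a11 (1446 ± 127), Gclc (1412 ± 304) and Gclm (1070 ± 188) formed a run, beginning with Gsr, in which each overlapped the next. Nqo1 stayed lowest (608 ± 115) and did not overlap Gclm. Prdx1 made up 18.7 ± 1.41% of the summed level per kilobase of the 10 genes before and 46.5 ± 1.28% after culture. Nfe2l2 went from 29.8 ± 1.63% to 4.02 ± 0.256% of that sum.

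**Figure D4:**
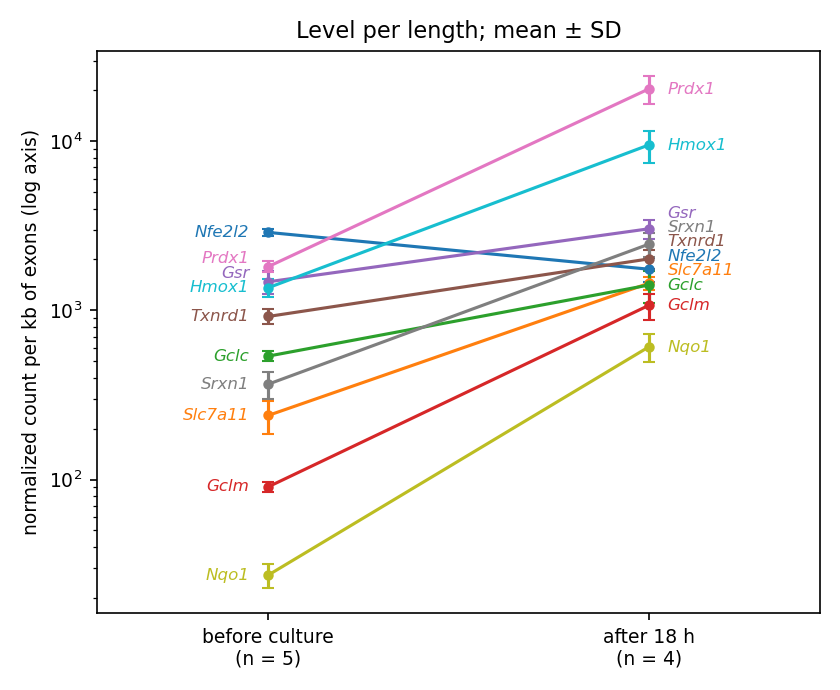
Mean normalized count per kilobase of exons (log axis), with SD, of each gene before culture (n = 5) and after 18 h (n = 4). Nfe2l2 moves from the top to the middle of the order, Prdx1 and Hmox1 rise to the top, and Nqo1 stays lowest in both groups.

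Taken over both groups together, most of the 10 genes tended to vary in the same direction around their group means. With group means removed, Pearson's r of log2 levels over the 9 samples was above 0 for 37 of the 45 gene pairs (median 0.52). All 36 pairs without Gclc were above 0 (up to 0.966), and 8 of the 9 pairs with Gclc were below 0 (down to −0.597). These points share their libraries and are a description, and the same share over all pairs of tested genes was not computed. Each r pools both groups, and r was not computed for either group alone. Over all genes, replicates 2 and 3 after culture differed most among the 16 pairs of replicates. After culture, replicate 3 was lowest for 8 genes, all but Gclm and Gclc, and highest for Gclc. Before culture, replicate 1 was lowest for 5 genes but highest for Gclm. Replicate 4 was lowest for 3 genes (Hmox1, Srxn1 and Txnrd1) but highest for Nqo1 and Gclc. The genes therefore did not all share a course before culture.

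The summed normalized count of the 10 genes was 138130, 166633, 120943 and 166005 in replicates 1 to 4 after culture. The sum of 8 monocyte and interstitial macrophage markers in these samples was 26479, 38408, 17231 and 28732. Replicate 3 was lowest and replicate 2 highest in both sums. The marker sums of type 2 conventional dendritic cells and of neutrophils were also lowest in replicate 3 and highest in replicate 2. Those of T cells and NK cells were lowest in replicate 2 and highest in replicate 3. The lung epithelial marker sum was also highest in replicate 3 (7171, against 2522 to 2962 in the other samples after culture). Before culture it was highest in replicate 4 (37689, against 18056 to 22870 in the others). The 10 genes summed to 34693 in that sample, against 33199 in replicate 1, the lowest before culture. The sum of the 8 monocyte and interstitial macrophage markers was 31022 to 56802 before and 17231 to 38408 after culture, so its groups overlapped. The sum of the 10 genes was 33199 to 39596 before and 120943 to 166633 after culture. Of those 8 markers, 5 were lower, 0 higher and 3 not past the threshold in limma, and none was at 0 in a group. Csf1r, the largest of them after culture, was among those not past the threshold (11801 ± 2414 before, 14883 ± 3908 after culture). The 8 alveolar macrophage markers summed to 17658 to 26348 before and 8588 to 11699 after culture, with 5 lower, 1 higher (Fabp4) and 2 not past the threshold, and none at 0 in a group. All 7 neutrophil markers were lower (summed 14291 to 25004 before, 932 to 1902 after culture), as were all 6 markers each of endothelial cells, fibroblasts and lung epithelium, all 5 of NK cells and all 3 tested erythroid ones. The remaining lists held markers in both directions. Of 6 T cell markers, 1 was higher, 2 lower and 3 not past the threshold (summed 4524 to 5298 before, 4182 to 5329 after culture). Of 5 B cell markers, 1 was higher, 1 lower and 3 not past the threshold (2390 to 4460 before, 2435 to 3350 after culture). Of 6 markers of type 2 conventional dendritic cells, 1 was higher, 4 lower and 1 not past the threshold (16965 to 24180 before, 15311 to 28330 after culture). No tested marker of these lists was at 0 in all samples of a group. The part of these cells in the changes of the 10 genes was not tested.

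Many genes followed the same course over the 9 samples as the 9 genes that rose. Against the mean of their standardized log2 levels, 201 of the 18028 tested genes outside all member, pathway and marker lists had a Pearson's r of at least 0.99. Among the closest were Nr2c1, Npepps, Mmp12 and Mdfic (each 0.998), as a description over 9 samples that fall in 2 groups.

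Other genes of the pathway were taken from 9 further lists. Of the 91 genes on them, 90 were tested, and 42 were higher, 24 lower and 24 not past the threshold after culture, with a median log2 fold change of 0.25. This is 46.7% higher, beside the 34.2% over all tested genes, and 26.7% lower, beside 34.6%. These lists, too, were chosen with earlier results of these data known. List medians ran from −0.28 for other antioxidant enzymes and metallothioneins to 1.18 for heme and iron handling.

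**Figure D5:**
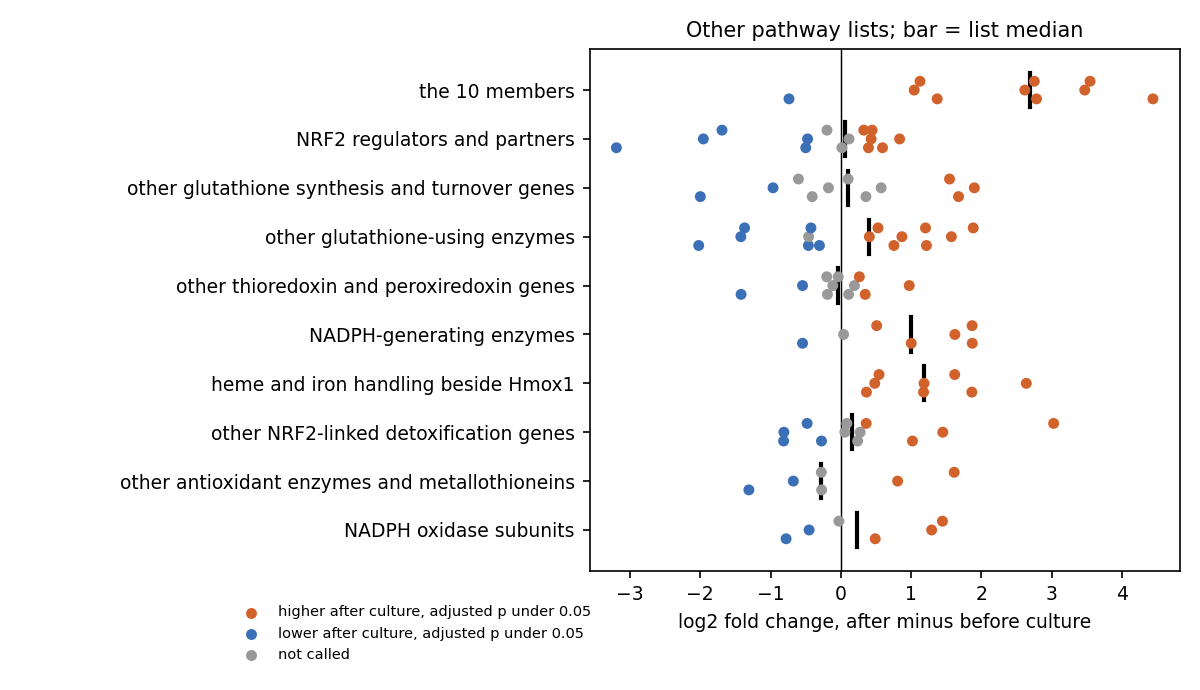
Log2 fold change (after minus before culture) of each tested gene of the 10 members and of 9 further lists, coloured by its limma call, with a bar at each list's median. The members lie mostly to the right of 1, all heme and iron genes are right of 0, and the other lists hold genes on both sides.

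Among regulators and partners of NRF2, 6 of 14 genes were higher, 5 lower and 3 not past the threshold (median 0.066). Keap1 was slightly higher (1004 ± 128 before against 1317 ± 159 after culture, log2 fold change 0.39, limma adjusted p = 0.00700), and its groups overlapped. Bach1, the repressor that competes at the same elements, was lower (6238 ± 614 against 4492 ± 413, log2 fold change −0.47, adjusted p = 3.00e-04). The small MAF genes moved in different directions. Maff was 9.22-fold lower (5151 ± 718 against 559 ± 34.8) and Mafk 3.88-fold lower (2509 ± 147 against 646 ± 45.0), while Mafg was 1.51-fold higher (1969 ± 171 against 2968 ± 223). Of the related factors, Nfe2l1 was 1.78-fold higher (3959 ± 191 against 7065 ± 283) and Nfe2 3.21-fold lower (401 ± 90.7 against 125 ± 35.9).

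Of 11 other genes of glutathione synthesis and turnover, 3 were higher, 2 lower and 6 not past the threshold. The 3 higher genes were Gss, the synthetase of the second step (295 ± 33.7 against 866 ± 124, 2.94-fold), Chac2 (22.7 ± 2.89 against 74.7 ± 10.3, 3.29-fold) and Abcc1, an exporter of glutathione and its conjugates (3295 ± 289 against 12310 ± 1329, 3.74-fold). The lower ones were Chac1 (170 ± 11.7 against 42.8 ± 11.2) and Ggt5 (344 ± 66.0 against 176 ± 33.0). Under quantile normalization 5 and after the GC and length correction 6 of these 11 genes were higher. With sample weights 4 were lower.

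Of 15 tested glutathione-using enzymes, 8 were higher, 6 lower and 1 not past the threshold (median 0.41). The transferases Gstm1 (1713 ± 216 against 6337 ± 972, with 23.1% of its windows shared, chiefly with Gstm2-ps1), Mgst1 (664 ± 70.5 against 1542 ± 264) and Gsto1 (1261 ± 40.8 against 2311 ± 222) rose. The glutathione peroxidase Gpx3 (1707 ± 299 against 419 ± 69.6) and the transferase Mgst3 (306 ± 39.7 against 113 ± 13.9) fell. Gpx7, at low counts, fell as well (46.8 ± 14.2 against 16.8 ± 1.49).

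Of the other peroxiredoxins, 1 fell, 1 rose slightly and 3 did not pass the threshold. Prdx2 was lower (2805 ± 230 against 1934 ± 284, log2 fold change −0.54, limma adjusted p = 3.51e-04), and Prdx4, Prdx5 and Prdx6 did not pass the threshold (log2 fold changes −0.20, 0.19 and 0.11; these 3 were named after their values were seen). Of the 11 other thioredoxin and peroxiredoxin genes, 3 were higher, 2 lower and 6 not past the threshold. Txn1, the thioredoxin that TXNRD1 reduces, rose 1.96-fold (2470 ± 370 against 4839 ± 668). Sesn2, the stress-induced sestrin 2, fell 2.68-fold (2504 ± 214 against 933 ± 20.2). The other higher genes were Txnrd2 (log2 fold change 0.35) and Prdx3 (0.26), and each lost its call in several alternative fits. With replicate 2 or 4 after culture left out, only 1 gene of this list was higher, and leaving out replicate 2 gave 4 lower.

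Of 7 NADPH-generating enzymes, 5 were higher, 1 lower and 1 not past the threshold (median 1.00). Idh1 (1419 ± 149 against 5212 ± 804), Pgd (4608 ± 683 against 14270 ± 2857) and Me1 (101 ± 28.1 against 361 ± 51.2, with 26.5% of its windows shared, chiefly with Gm7049) rose by 3.10- to 3.67-fold. The lower gene, Pgls (log2 fold change −0.54), was at 0.020 and not called once GC content and gene length were corrected for.

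All 8 genes of heme and iron handling beside Hmox1 were higher (median 1.18), but 7 of the 8 with a replicate block by title number and 7 after the GC and length correction. Blvrb, a biliverdin reductase, rose 6.26-fold (414 ± 96.4 against 2595 ± 677) and Slc48a1, a heme transporter, 3.69-fold (2016 ± 171 against 7444 ± 1563). The ferritin chain Ftl1 rose 3.05-fold (30417 ± 6062 against 92720 ± 15184), but 78.9% of its windows are shared, chiefly with Ftl1-ps1, so its count is uncertain.

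Of 12 other NRF2-linked detoxification genes, 4 were higher, 4 lower and 4 not past the threshold. Akr1b8, an aldo-keto reductase, rose 8.24-fold (93.7 ± 19.5 against 772 ± 179), Htatip2 2.73-fold (231 ± 31.0 against 631 ± 70.9) and Ugdh 2.04-fold (833 ± 53.7 against 1699 ± 235). Ephx1 (683 ± 99.2 against 389 ± 64.4) and Trim16 (482 ± 62.6 against 273 ± 21.1) fell. Under upper quartile scaling or after the GC and length correction, 2 genes of this list were lower. Of 6 other antioxidant enzymes and metallothioneins, 2 were higher, 2 lower and 2 not past the threshold. Catalase (Cat) rose 3.09-fold (2683 ± 53.7 against 8278 ± 1315) and mitochondrial Sod2 1.79-fold (2299 ± 227 against 4106 ± 1049), while cytosolic Sod1 fell 2.49-fold (4036 ± 447 against 1623 ± 89.4) and Mt1 fell 1.59-fold (4415 ± 454 against 2771 ± 374).

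Of 6 subunits of the phagocyte NADPH oxidase, which makes superoxide, 3 were higher, 2 lower and 1 not past the threshold. Cybb, the catalytic subunit, rose 2.75-fold (10391 ± 1247 against 28574 ± 5413) and Ncf1 2.44-fold (6658 ± 847 against 16218 ± 1138). Rac2 fell 1.72-fold (6147 ± 687 against 3572 ± 284). Cyba was higher (0.49 in log2, limma adjusted p = 0.0206), but not without replicate 2 after culture (adjusted p = 0.0666).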

How the data were processed

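RNA-seq was read in 9 mouse samples, 5 before and 4 after culture. The authors deposited 1 table of counts divided by size factors, a signal scale; DESeq2 and GRCm38 are named per the submitters' processing notes, and the aligner, counter, annotation and strand setting are not given in the sources used here. All deposited signal values (100%) were whole multiples of 1 read (tolerance 1e-06). The 3782 rows with no symbol, which held 3.87 to 10.9% of reads, were left out. Genes with a mean of at least 10 were fitted as log2(value + 1) with limma 3.58.1 (R 4.3.3) and Benjamini-Hochberg adjustment over 18202 genes, at a threshold of 0.05. A fold is a ratio of group means, and a log2 fold change is on the log2(value + 1) scale. Count-based alternatives used edgeR 4.0.16 and DESeq2 1.42.0 on recovered reads, which changed 12562 and 12663 genes, beside 12524 in limma. The fit was also run on simulated counts in which far fewer genes changed than in these data. That run is therefore no check of the calls or the scaling here. Ratios of partner genes were tested by exact permutation. Exonic lengths and overlaps came from GENCODE M21. Shared windows are 50-base stretches found in other genes. The members and lists were chosen with earlier results of these data known. Named genes were all members, up to 3 genes per list and direction with the smallest adjusted p, and Keap1, Bach1 and Slc3a2. One gene that the rule on likeness would name is not reported here.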

Additional observations from a re-analysis of the deposited data

Results flagged for a closer look

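Among 120 groups of 4 or 5 samples (the named genes and the 3 partner ratios in each culture group), 3 had a sample far from the others, where chance alone flags about 1 in 20 groups. Slc3a2, the partner of Slc7a11, had a normalized count of 7623 in replicate 4 before culture, against 8725 to 9154 in the other samples of that group. Cyba, a subunit of the NADPH oxidase, had 3827 in the same sample, against 6084 to 6842. Gpx7 had 14.6 in replicate 3 after culture, against 17.4 to 17.7. None of the 10 members was among them.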

How the results depend on the processing

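All 10 members kept their direction and their call in 22 of 22 alternative fits (220 values), and their largest adjusted p was 5.16e-04, for Nfe2l2 with a replicate block by title number. Of 1031 values of other named genes, 1011 kept direction and call, 14 lost the call, 4 gained it and 2 reversed: Pgls (0.020) and Slc3a2 (0.19), both after the GC and length correction. That correction and upper quartile scaling moved the median of all genes by 0.123 and 0.107, and the share of higher genes among changed ones from 49.7% to 58.2% and 56.1%. With 1 sample left out in turn, the rise of the log2 ratio was 2.02 to 2.34 for Gclm to Gclc, 2.69 to 2.87 for Slc7a11 to Slc3a2 and 0.0600 to 0.127 for Txnrd1 to Gsr. The ratios were rerun only with other pseudocounts and with samples left out, not with the GC and length correction. That correction brought the log2 fold changes of Slc7a11 (2.62 to 2.40) and Slc3a2 (−0.18 to 0.19) closer together, so these ranges do not cover it. By title number, same-numbered samples had residual correlations of −0.213 to 0.081. By library number all 4 were positive (0.045 to 0.349), and each after-culture sample correlated best with the before-culture sample of its own number. This is a hint of pairing. Library numbers run 1 to 5 before culture and 1, 3, 4 and 5 after it. Whether equal numbers mark pairs is not given in the sources used here. Not all 4 correlations were above 0.1, and no block was used in the main fit. The partner ratios were tested without pairing only, so a pairing could change their p-values. The replicate block by title number changed 11646 genes and by library number 12836, beside 12524 without it. Among the members, Nqo1 had the fewest reads (24 in 1 sample before culture), and among other named genes Chac2 (12) and Gpx7 (14) had fewer still.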
